A study of Saccharomyces cerevisiae with 5 samples.

Results

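Mitochondrial ribosomal proteins are the protein part of the ribosome that works inside mitochondria. The 54 genes described here are all those whose symbol is MRPL, MRPS or RSM followed by a number, out of 5449 Saccharomyces cerevisiae genes on the array. Of them, 34 (MRPL) belong to the large subunit and 20 (MRPS and RSM) to the small subunit. Each was read by 1 probe set, and 0 of these probe sets carried the suffixes that mark sharing between sequences. The arrays were Affymetrix expression arrays, 2 with RNA of a strain whose label gives a PHO2 deletion and 3 with RNA of the wild-type strain FY4. PHO2 encodes a homeodomain transcription factor that acts with Bas1 at purine and histidine synthesis genes and with Pho4 at phosphate-responsive genes. All cultures grew exponentially in minimal medium with glucose, and the sources used here do not give the parent strain or the marker of the deletion.

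The mitochondrial ribosome translates the few messages of mitochondrial DNA, nearly all of which encode core subunits of the respiratory chain and the ATP synthase. Nearly all of its proteins are encoded in the nucleus, made in the cytosol and imported. Part of them descend from bacterial ribosomal proteins, and others are found only in mitochondria. Budding yeast ferments glucose and can grow without mitochondrial translation as long as it has a fermentable carbon source.

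The group names are used as labels, because signals of the PHO2 probe set overlapped between them. They were 10.07 and 10.84 (log2) with the PHO2 deletion label, against 10.72, 10.54 and 10.38 on the wild-type arrays (log2 difference -0.09, SE 0.24, limma adjusted p = 0.825). Where its probes lie relative to the deleted part is not given. Of 47 reporter probe sets for sequences used in constructs, 1 lay above the background bound (log2 6.44, the 95th percentile of probe sets not matched to an S. cerevisiae gene) on all arrays of the PHO2 deletion label and below it on all wild-type arrays. It read 14.35 and 14.38 on the arrays labelled PHO2 deletion, against 4.38, 4.58 and 4.29 on the wild-type arrays. Nothing in the labels names a batch or says that replicates came from separate cultures, so the p-values rest on a spread that may be technical, and precision is limited by having 5 arrays. Signals are relative to the RNA of a whole culture, so fewer cells carrying a transcript and less of it per cell cannot be told apart. All 54 genes lay far above that bound, with means over the 5 arrays from 10.27 to 12.56.

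Transcripts of short mitochondrial ribosomal protein genes had higher signals on the arrays labelled PHO2 deletion, and those of long ones had slightly lower signals, but no single gene passed the test. By limma, with Benjamini-Hochberg adjustment over all 5449 genes and a threshold of 0.05, 0 of the 54 genes rose and 0 fell. Among all genes, 3.17% rose and 1.87% fell. The lowest adjusted p was 0.0882, for MRPS16. At an unadjusted p below 0.05, 16 of the 54 were higher and 5 were lower, against 16.1% and 13.3% of all genes. On both arrays labelled PHO2 deletion, 24 genes lay above and 13 lay below all 3 wild-type arrays, or 44.4% and 24.1%. The background shares for these counts were 27.1% and 25.9% of all genes. The median log2 difference was 0.09 over the 54 genes and 0.01 over all genes. That median hides a wide range, from -0.25 to 1.36, which the coding length ordered.

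Within the large subunit, the highest difference was that of MRPL37, whose product mL54 is one of the proteins found only in mitochondrial ribosomes. MRPL37 had log2 signals of 11.57 and 11.85 on the arrays labelled PHO2 deletion, against 10.92, 11.12 and 9.73 on the wild-type arrays. The groups did not overlap, and the lowest value by far was that of wild-type replicate 3. The fold was 2.17 (log2 difference 1.12, SE 0.44, limma adjusted p = 0.167). MRPL33, the counterpart of bacterial L30 (uL30m), read 11.80 and 12.00 on the arrays labelled PHO2 deletion, against 11.28, 11.32 and 9.96 on the wild-type arrays. MRPL39 (bL33m), with 213 nt the shortest of all 54 genes, read 12.38 and 12.55 on the arrays labelled PHO2 deletion, against 11.79, 11.84 and 10.67 on the wild-type arrays. In both genes the groups were separate, and wild-type replicates 1 and 2 lay close together while replicate 3 was more than 1 log2 unit lower. Their log2 differences were 1.04 (SE 0.44, adjusted p = 0.19) and 1.03 (SE 0.38, adjusted p = 0.152). MRPL27 (mL41) followed with a difference of 0.64 and MRPL50 (bL9m) with 0.53.

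At the other end of the large subunit stood its longest gene, MRPL3 (1173 nt), whose product mL44 resembles ribonuclease III. MRPL3 read 11.84 and 11.92 on the arrays labelled PHO2 deletion, against 12.12, 12.02 and 12.09 on the wild-type arrays. The groups did not overlap, the arrays labelled PHO2 deletion were the lower ones, and wild-type replicate 3 lay among the other wild-type values. The mean was 87.2% of wild-type (log2 difference -0.20, SE 0.06, limma adjusted p = 0.124). MRPL15 (mL57) had a log2 difference of -0.14 and MRPL4 (uL29m) of -0.09, and neither passed the test (adjusted p = 0.249 and 0.383).

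The small subunit spanned the same kind of range. RSM19 (uS19m), with 276 nt its shortest gene, read 11.05 and 11.38 on the arrays labelled PHO2 deletion, against 10.53, 10.44 and 8.60 on the wild-type arrays. This was the highest difference of all 54 genes and also the one with the largest error, since wild-type replicate 3 lay well below the other wild-type arrays (log2 difference 1.36, SE 0.62, limma adjusted p = 0.212, 95% interval from -0.22 to 2.94). RSM27 (mS33) read 12.07 and 12.14 on the arrays labelled PHO2 deletion, against 11.38, 11.65 and 10.61 on the wild-type arrays. Its difference was 0.89 (SE 0.31, adjusted p = 0.14). MRPS16, the counterpart of bacterial S16 (bS16m), read 12.19 and 12.33 on the arrays labelled PHO2 deletion, against 11.59, 11.64 and 10.98 on the wild-type arrays. MRPS16 was 1.81-fold higher (log2 difference 0.86, SE 0.22, adjusted p = 0.0882), and without wild-type replicate 3 it passed the test (0.65, adjusted p = 0.0349). RSM18 (bS18m) and MRPS8 (uS8m) had log2 differences of 0.52 and 0.49, and both passed the test without wild-type replicate 2 (0.69 and 0.68, adjusted p = 0.0298 and 0.029).

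RSM22, which resembles methyltransferases and is with 1887 nt the longest of the 54 genes, had the lowest difference. It read 10.38 and 10.49 on the arrays labelled PHO2 deletion, against 10.71, 10.62 and 10.72 on the wild-type arrays. The groups did not overlap, and the mean was 84.1% of wild-type (log2 difference -0.25, SE 0.07, limma adjusted p = 0.0909). MRPS35 (mS45, 1038 nt) and MRPS28 (uS15m, 861 nt) had log2 differences of -0.19 (adjusted p = 0.112) and -0.17 (adjusted p = 0.155), also with both arrays labelled PHO2 deletion below every wild-type array.

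**Figure D1:**
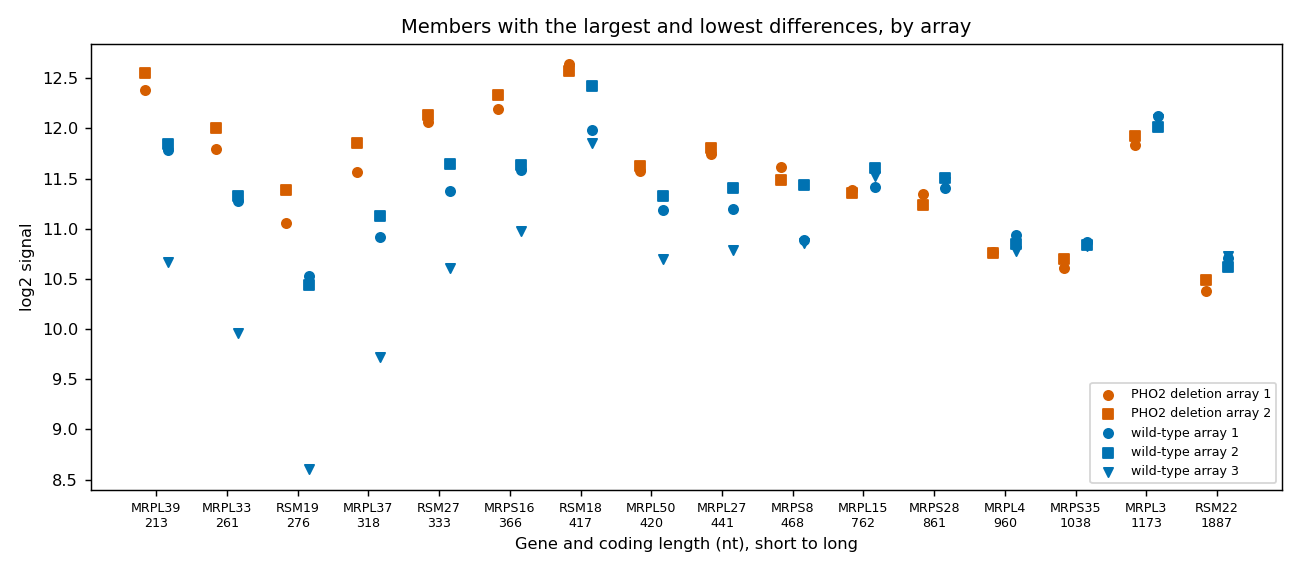
The log2 signal of each array (y axis) is plotted for the 8 genes of each subunit with the highest or lowest differences, ordered by coding length in nt (x axis), with PHO2 deletion arrays in orange to the left of wild-type arrays in blue. In the shortest genes wild-type replicate 3 (triangles) lies far below the other arrays, as in RSM19 at 8.60, while in the longest gene, RSM22, all 5 values lie between 10.38 and 10.72.

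Coding length sorted the 54 genes more sharply than subunit did. All 23 genes of 600 nt or less had positive log2 differences, with a median of 0.52 (1.43-fold) and a range from 0.25 to 1.36. Of the 31 longer genes, 21 had negative differences, with a median of -0.04 and a range from -0.25 to 0.21. The genes nearest to this length on either side were MRPL20 (mL58, 588 nt), with 0.37, and RSM10 (uS10m, 612 nt), with 0.00092. Across the 54 genes, Spearman's rho between difference and length was -0.91, and the slope was -0.55 log2 units per doubling of length. Genes are not independent replicates, and all these points share the same 5 arrays, so the correlation is a description. Lengths run from the first to the last coding base in the gene table, introns included.

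**Figure D2:**
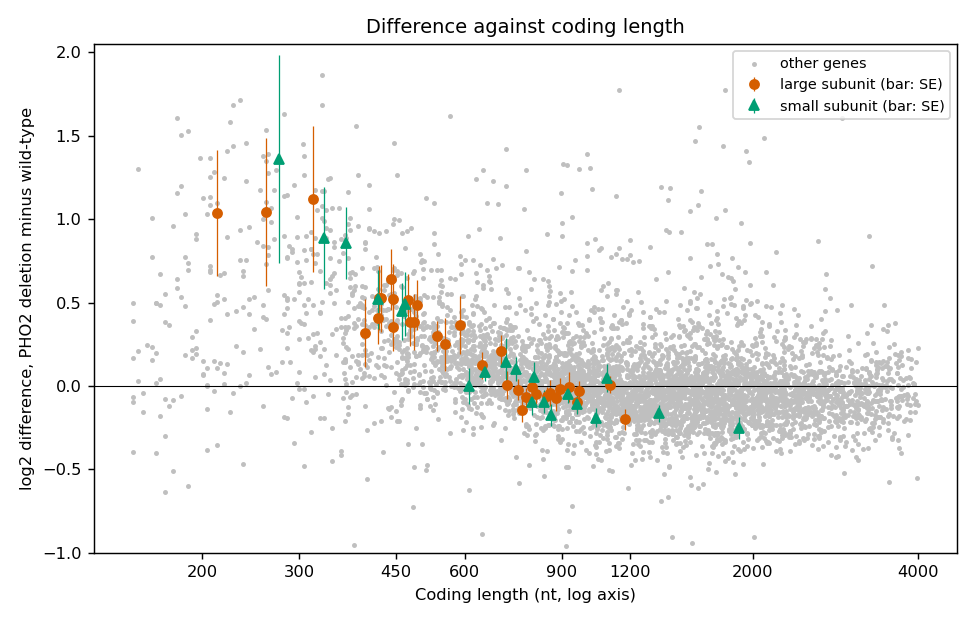
Each point is a gene, with coding length in nt on a log x axis and the log2 difference, PHO2 deletion minus wild-type, on the y axis; bars are limma's SE, and other genes beyond the axes are not drawn. Both subunits run along one falling band, with the genes under 300 nt above 1.0 and the longest gene at -0.25, and the error bars shorten as length grows.

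The subunits differed in their medians, 0.23 for the large and 0.05 for the small, but they also differed in length. In the large subunit 17 of 34 genes, and in the small subunit 6 of 20, had 600 nt or less. Among the short genes the median difference was 0.49 in the large and 0.69 in the small subunit, the opposite order. Among the longer genes it was -0.03 in the large and -0.07 in the small subunit. The slope on length was nearly equal, -0.55 in the large and -0.56 in the small subunit per doubling. The difference between the subunits was not tested.

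Descent of the protein was also compared within the length classes. By the systematic names of the gene table, which begin with u or b for proteins with bacterial relatives and with m for those found only in mitochondria, 33 genes were of the first kind and 20 of the second. RSM22 carries no such name there. Short genes had a median difference of 0.49 where the protein has a bacterial counterpart (14 genes) and 0.52 where it is specific to mitochondria (9 genes). Longer genes had medians of -0.02 (19 genes) and -0.10 (11 genes). Of those 11 longer mitochondrion-specific genes, 7 lay below all wild-type arrays on both arrays labelled PHO2 deletion. For the 19 longer genes with a bacterial counterpart this count was 5. The share was 30.2% of other genes above 600 nt and 25.9% of all genes. Median lengths also differed, with 960 nt in the 11 genes and 810 nt in the 19. The difference between these classes was not tested.

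The arrays differed from each other in the same genes within a group. In the 23 short genes, wild-type replicate 3 was the lowest wild-type array in 21 and replicate 2 was the highest in 21. The median of replicate 3 minus the mean of replicates 1 and 2 was -0.48 in the short genes and -0.0037 in the 31 longer ones. Its slope on length over the 54 genes was 0.55 per doubling, as steep as the slope of the group difference and opposite in sign (these contrasts share the wild-type arrays). Between the arrays labelled PHO2 deletion (replicate 2 minus 1) the slope was -0.07 per doubling, and for wild-type replicate 2 minus 1 it was -0.08. Both slopes differed by length class, with -0.25 and 0.25 in the 23 short genes and 0.09 and -0.16 in the 31 longer ones. For wild-type replicate 3 minus the mean of replicates 1 and 2 the slope was 1.06 in the short and 0.06 in the longer genes. The spread followed: limma's SE had a median of 0.18 in the short genes and 0.07 in the longer ones.

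Without wild-type replicate 3, all 23 short genes still had positive differences. Their median was then 0.34, and the slope was -0.36 per doubling. Set against single wild-type arrays, the mean of the arrays labelled PHO2 deletion was higher in the short genes by a median of 0.48 (replicate 1), 0.28 (replicate 2) and 0.77 (replicate 3). With wild-type replicate 3 left out, 3 of the 54 genes rose (MRPL33, MRPL39 and MRPS16), where 188 of all 5449 genes rose. With wild-type replicate 2 left out, another 3 rose (MRPL49, MRPS8 and RSM18), where 208 of all 5449 genes rose. Leaving out wild-type replicate 1 gave 0 risen and 0 fallen genes by limma, where 12 of all 5449 genes rose and 11 fell. Leaving out a PHO2 deletion array left a lone array in that group. The median difference of the 54 genes was then 0.07 (without replicate 1) and 0.12 (without replicate 2), against -0.02 and 0.04 over all genes.

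**Figure D3:**
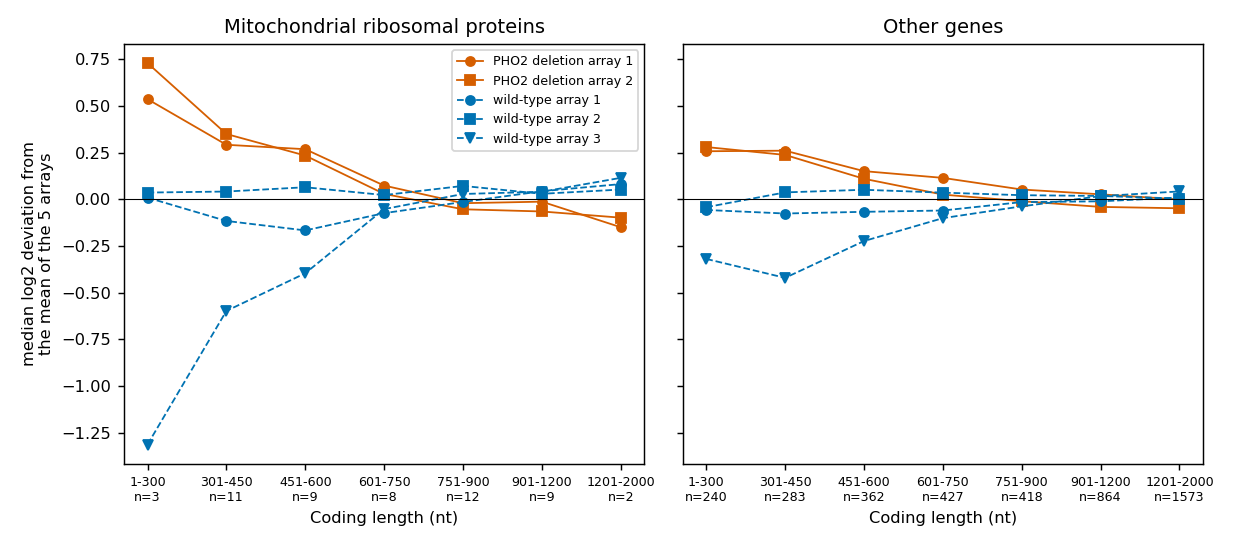
The median log2 deviation of each array from the mean of all 5 arrays (y axis) is drawn per class of coding length in nt (x axis), for the 54 mitochondrial ribosomal protein genes on the left and for other genes on the right; n is the number of genes. In the class of 301 to 450 nt the PHO2 deletion arrays stood at 0.29 and 0.35 and wild-type replicate 3 at -0.60, while all arrays lie within 0.08 of 0 between 601 and 1200 nt on the left.

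Other short genes went the same way, less steeply. Of the 885 other genes of 600 nt or less, which include 12 mitochondrial ribosomal protein genes with other kinds of names, 754 had positive differences, and their median was 0.30, against 0.52 for the 23 short genes of the 54. Both arrays labelled PHO2 deletion lay above all wild-type arrays in 91.3% of these 23 genes and in 60.5% of the other short genes. In the class from 301 to 450 nt the medians were 0.53 (11 genes) and 0.42 (283 other genes). From 451 to 600 nt they were 0.38 (9 genes) and 0.21 (362 other genes), and from 751 to 900 nt they were -0.06 (12 genes) and 0.03 (418 other genes). Over the 3885 other genes within the length range of the 54, the slope was -0.21 per doubling, against -0.55. Genes of 600 nt or less make up 42.6% of the 54 and 16.7% of all genes. Whether the slopes differ was not tested.

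Subtracting each array's curve on coding length, fitted over all genes, lowered the gap between short and longer genes from 0.56 to 0.28. The curves describe deviations from the mean of all 5 arrays, so a group difference that runs with length is subtracted as well. The median log2 difference of the 54 genes was then -0.03, the same as that of all genes (-0.03). By limma 0 of the 54 rose and 0 fell, where 195 of all 5449 genes rose and 153 fell. A slope of -0.31 per doubling remained, with medians of 0.15 in the 23 short genes and -0.13 in the 31 longer ones. RSM19 kept a difference of 0.90 (adjusted p = 0.26), MRPL37 one of 0.68 (adjusted p = 0.195) and MRPS16 one of 0.44 (adjusted p = 0.0658). MRPS28, with -0.24, then had the lowest adjusted p (0.0559), and MRPL15 the lowest difference (-0.25, adjusted p = 0.0751).

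**Figure D4:**
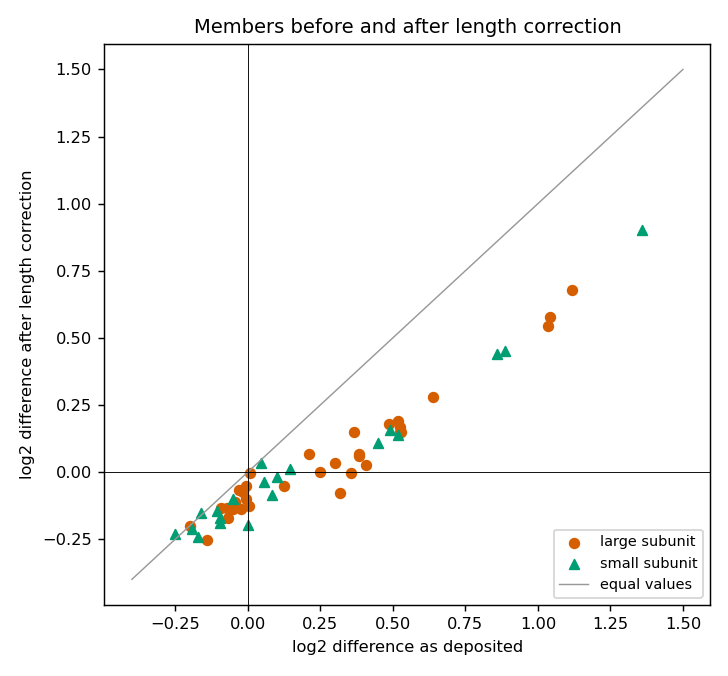
Each point is a mitochondrial ribosomal protein gene, with its log2 difference (PHO2 deletion minus wild-type) as deposited on the x axis and after subtraction of the length curve on the y axis; the grey line marks equal values. Nearly all points lie below the line, the highest of them RSM19 at 1.36 before and 0.90 after, and the longer genes gather near or below 0.

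Mitochondrial ribosomal protein genes with other kinds of names had differences that also ran with length, with a slope of -0.45 per doubling. Of 24 such genes, which include MRP, IMG and RTC6 names, 0 rose and 0 fell by limma. At an unadjusted p below 0.05, 6 were higher and 1 was lower, against 16.1% and 13.3% of all genes. The median difference of the 24 genes was 0.11, with 0.52 in the 12 short and -0.06 in the 12 longer ones. RTC6 (bL36m, 282 nt) had the highest, 0.90 (adjusted p = 0.166), and EHD3, an enzyme of valine breakdown also found in the small subunit, the lowest, -0.29 (adjusted p = 0.102). Without wild-type replicate 3, RTC6 passed the test with a smaller difference of 0.55 (adjusted p = 0.0439).

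Genes that serve the mitochondrial ribosome are longer, and their differences were mostly negative. Of 13 mitochondrial aminoacyl-tRNA synthetases, which charge the tRNAs used there, all 13 had negative differences, with a median of -0.17. After the length correction 0 of them had positive differences, and the median was -0.15. By limma 2 of the 13 fell, against 1.87% of all genes. DIA4, the probable seryl-tRNA synthetase, read 9.71 and 9.65 on the arrays labelled PHO2 deletion, against 10.09, 10.13 and 10.14 on the wild-type arrays. DIA4 fell by 0.45 on the log2 scale (SE 0.05, limma adjusted p = 0.0213), and by 0.44 after the length correction (adjusted p = 0.0123). MSW1, the tryptophanyl-tRNA synthetase, read 10.17 and 10.05 on the arrays labelled PHO2 deletion, against 10.42, 10.45 and 10.48 on the wild-type arrays. MSW1 fell by 0.34 (SE 0.06, adjusted p = 0.0468, and 0.0248 after the length correction). In both genes every array labelled PHO2 deletion lay below every wild-type array. SLM5, the asparaginyl-tRNA synthetase, had the difference nearest to 0 (-0.07, adjusted p = 0.565). The adjusted p of DIA4 was 0.0896 with wild-type replicate 1 left out, 0.156 with PHO2 deletion replicate 1 left out and 0.136 with PHO2 deletion replicate 2 left out. MSW1 missed the threshold whichever of the 5 arrays was left out (adjusted p from 0.0719 to 0.216).

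Of 15 translation and assembly factors, 0 rose and 0 fell by limma, and the median was -0.10. At an unadjusted p below 0.05, 0 were higher and 2 were lower, against 16.1% and 13.3% of all genes. MEF1, the mitochondrial elongation factor G, had the lowest difference (-0.27, adjusted p = 0.0706), and GUF1, a GTPase related to bacterial LepA, the highest (0.11, adjusted p = 0.43). Of 15 activators and helpers of single mitochondrial messages, 0 rose and 1 fell by limma, against 3.17% and 1.87% of all genes. Their median difference was -0.03. MSS51, which activates translation of the COX1 message, read 11.57 and 11.59 on the arrays labelled PHO2 deletion, against 11.91, 11.92 and 11.90 on the wild-type arrays. It fell by 0.33 (SE 0.05, limma adjusted p = 0.0316), and by 0.33 after the length correction (adjusted p = 0.0343). Without any 1 of the 5 arrays its adjusted p lay between 0.0504 and 0.221. CBP6, which serves the cytochrome b message and is the 1 short gene of that list (489 nt), had the highest difference, 0.37 (adjusted p = 0.116).

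The respiratory chain, whose core subunits the mitochondrial ribosome makes, was set beside it through 36 nuclear genes. Of these, 9 rose and 0 fell by limma, against 3.17% and 1.87% of all genes. All 36 had positive differences, and the median was 0.53. The count of risen respiratory genes was 0 without wild-type replicate 1, 13 without replicate 2 and 16 without replicate 3. Over all 5449 genes these counts were 12, 208 and 188. In the respiratory genes above 600 nt, all 11 differences were positive with a median of 0.24. The 31 mitochondrial ribosomal protein genes of that length had a median of -0.04. Over all genes above 600 nt outside the 54 the median was -0.02, and over those from 601 to 750 nt it was 0.11. With the length correction all 11 stayed positive with a median of 0.17, against -0.13 in the 31 genes. The 25 respiratory genes of 600 nt or less had a median of 0.60, against 0.52 in the 23 short mitochondrial ribosomal protein genes. The slope on length was -0.36 per doubling over the 36 respiratory genes and -0.55 over the 54 genes. After the length correction the medians were 0.23 for the respiratory genes and -0.03 for the 54 genes. Cytosolic ribosomal protein genes, the counterparts in the cytosol, numbered 128, of which 0 rose and 0 fell by limma. At an unadjusted p below 0.05, 5 of the 128 were higher and 6 lower, against 16.1% and 13.3% of all genes. The 34 short cytosolic genes had a median of 0.08, against 0.52 in the 23 short mitochondrial ribosomal protein genes. The differences between these lists were not tested.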

How the data were processed

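The deposited values are 1 probe set intensity on a linear scale per array, from 9.49 to 37719; per the submitters' processing notes R 2.8.0, the affy package and RMA were used. That RMA values were turned back from log2 is an inference from this range, and no source used here says which arrays were normalized together. All tests used log2 signals. Of 10928 probe sets, 5498 matched 1 S. cerevisiae gene in the R64 gene table (by gene number, otherwise locus tag), giving 5449 genes after keeping the probe set with the highest mean over the 5 arrays; 1747 annotated probe sets without a match set the background bound. Columns of other samples: 0. Groups and replicate numbers came from the sample titles. The comparison, PHO2 deletion minus wild-type over all 5449 genes, used limma 3.58.1 under R 4.3.3 (lmFit with eBayes, two-sided, 3 residual and 2.23 prior degrees of freedom); errors are limma's moderated SE. The code was tested on simulated data. Length correction subtracted, per array, a loess curve of the deviation from the gene mean on log2 coding length. Named are, per subunit, the 5 highest and 3 lowest differences and the shortest and longest gene, any gene past the threshold, and the highest and lowest of each mitochondrial translation list; MRPL20 and RSM10, next to the 600 nt limit, and MRPL49 were chosen after their values were seen. The genes and lists were chosen with earlier results of these data known. Promoter motifs were not analysed here.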

Additional observations from a re-analysis of the deposited data

Results flagged for a closer look

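Of 47 reporter probe sets, which stand for sequences used in constructs and lie outside the gene measurements, 1 was above the background bound on both arrays labelled PHO2 deletion and below it on all 3 wild-type arrays. It read 14.35 and 14.38 on the log2 scale on the arrays labelled PHO2 deletion, against 4.38, 4.58 and 4.29 on the wild-type arrays. Groups of 3 and 2 arrays are too small for a check of single outlying arrays.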

How the results depend on the processing

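The count of risen mitochondrial ribosomal protein genes (0) became 2 with array weights (MRPL27 and MRPS16), where 372 of all 5449 genes rose. It ranged from 0 to 3 when 1 wild-type array was left out, where 12 to 208 of all genes rose. The count of fallen genes was 0 under all 15 alternatives. The median difference of the 54 genes (0.09) was 0.041 after a second quantile normalization, -0.028 after the length correction and -0.043 without genes of 600 nt or less, and ranged from 0.06 to 0.12 with 1 array left out. The large subunit median (0.23) was -0.0027 after the length correction and -0.030 without genes of 600 nt or less, and ranged from 0.14 to 0.32 with 1 array left out. The small subunit median (0.05) was -0.063 and -0.073 under these length alternatives, -0.011 without wild-type replicate 1 and -0.020 without PHO2 deletion replicate 1, and ranged from -0.020 to 0.11. The gap between short and longer genes (0.56) was 0.28 after the length correction and ranged from 0.39 to 0.67 with 1 array left out. The slope on length (-0.55), a measure added after the data were seen, was -0.21 without genes of 600 nt or less and ranged from -0.66 to -0.36. The second quantile normalization, centring of each array, a trend in eBayes, leaving out dim genes, the lowest probe set per gene and every matched probe set gave 0 risen and 0 fallen.

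The labels do not say that a replicate number marks a shared culture or day, so the numbers were not taken as pairs. Same-numbered arrays gave correlations of -0.38 and -0.0027 between their deviations from the group mean. With 2 arrays labelled PHO2 deletion, the deviations of these arrays mirror each other, so the correlations cannot decide on pairing. With the replicate number as a block, 0 of the 54 genes rose and 0 fell, the large subunit median was 0.14, and 35 of all genes were called, against 275 without the block. Calls over all 5449 genes were also few without wild-type replicate 1 (23) or with a lone array in the group labelled PHO2 deletion (19 and 26), where the lone array is assumed to vary like the others. They were 638 with array weights and 489 without genes of 600 nt or less. For the 25 named genes, 335 of 363 values under alternatives kept direction and side of the threshold, 16 lost a call, all of DIA4, MSW1 or MSS51, 11 gained one, and SLM5 ranged from -0.14 to 0.0091 with 1 array left out, the second value without PHO2 deletion replicate 2.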

Other observations

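In 2 places a mitochondrial ribosomal protein gene lies next to another on the chromosome, as the order of the gene table gives it; they were picked after their values were seen. RSM19 (276 nt) and MRPS12 (uS12m, 462 nt) are neighbours on the same strand, with log2 differences of 1.36 (SE 0.62) and 0.45 (SE 0.17). MRPL1 (uL1m, 858 nt) and MRX14 (bL34m, 318 nt) are neighbours on opposite strands, with differences of -0.04 (SE 0.08) and 0.79 (SE 0.26). None of the 4 passed the test (limma adjusted p from 0.131 to 0.737).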
